A study of Mus musculus with 9 samples.

Results

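The genes described here are 10 genes of coenzyme Q synthesis. Hpdl supplies the head group, and Pdss1, Pdss2, Coq2, Coq3, Coq5, Coq6 and Coq7 make the tail, join it to the head group and modify the ring. Coq8a and Coq9 act as partners of these enzymes. The 10 genes were chosen by symbol from 55421, with their RNA levels under each virus already known. Hpdl was set beside the others for its level, so the levels and fold changes of all 10 are given as a description. All 10 were found in the deposited tables, and all 10 passed the filter on low values in each comparison. All 10 had more RNA with either form of PGC-1α than with the control virus. Of all tested genes, 30.9% were called higher with the full-length form and 23.1% with the form lacking the C-terminal domain. The call of Coq2 as higher with the full-length form was lost under another scaling. The mean level of Hpdl was 130.5 times the control level with the full-length form and 3.72 times with the form lacking the C-terminal domain, while the ratios of the other 9 genes ran from 1.12 to 8.459 and from 1.112 to 4.058.

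The cells were C2C12 myotubes, fibres that form when cells of a mouse myoblast line fuse, after 4 days of differentiation. They were exposed for 4 h to an adenovirus at a multiplicity of infection of 3 and collected after 48 h, and RNA was sequenced from 3 libraries for each virus. FL libraries came from myotubes given PGC-1α of full length, dCTD libraries from myotubes given PGC-1α that lacks the C-terminal domain, both carrying an HA-Flag tag, and LacZ libraries from myotubes given a bacterial enzyme gene as the control. All 3 groups had thus received an adenovirus, and myotubes without virus were not analysed here. PGC-1α is a transcriptional coactivator of mitochondrial genes, and its C-terminal domain holds RNA-binding motifs. Total reads were 99906750 to 123446198 per FL library, 87090490 to 110673140 per dCTD library and 110309704 to 118931863 per LacZ library.

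Coenzyme Q, also called ubiquinone, is a lipid of the inner mitochondrial membrane that carries electrons from dehydrogenases to complex III of the respiratory chain. Its long isoprenoid tail is built by the PDSS1 and PDSS2 synthase and is attached by COQ2 to 4-hydroxybenzoate, a ring derived from tyrosine. The ring is then hydroxylated and methylated by enzymes that work together as a complex on the membrane, and muscle, with its high respiration, relies on this pathway. HPDL is an iron-dependent dioxygenase that turns a product of tyrosine, 4-hydroxyphenylpyruvate, into 4-hydroxymandelate on the way to 4-hydroxybenzoate, as known from cultured mammalian cells.

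Ppargc1a, the gene of PGC-1α, had 227297, 198071 and 209100 normalized counts in FL libraries, 100543, 121631 and 116095 in dCTD libraries and 408, 383 and 400 in LacZ libraries. Both PGC-1α viruses therefore raised the transcript far above LacZ, and every FL library was above every dCTD library, by 0.91 ± 0.072 on the log2 scale (SE, limma, adjusted p = 2.04e-06). The dCTD form lacks part of the coding sequence, and whether its transcript was counted over its full length is not given. This gap in counts may therefore differ from the gap in transgene level. The part of transgene level in any FL to dCTD difference below was not tested. Normalized counts are whole reads divided by size factors computed over all 9 libraries, a scale shared by the 3 groups. Fold changes of FL or dCTD against LacZ were fitted within the authors' table for that pair, and fold changes of FL against dCTD on the shared scale.

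Promoters are shown for 3 genes because they span the range of responses: with FL, Hpdl had the largest fold change of the 10 over LacZ, Pdss1 the next largest and Coq2 the smallest. Each runs from 250 bases before to 50 bases after the start of a RefSeq transcript (GRCm38.p6), 5′ to 3′ on the strand of the gene, with capitals marking a match to one of the motifs searched. They lie at chr4:116821459-116821758 on the minus strand, chr2:22895272-22895571 on the plus strand and chr5:100674207-100674506 on the minus strand. The RefSeq start of Pdss1 is also the start of the gene in the deposited tables, but the tables' gene starts of Hpdl and Coq2 lie farther upstream, so the Coq2 window falls within that gene and most of the Hpdl window, with its marked match, within the Hpdl exon.
Hpdl: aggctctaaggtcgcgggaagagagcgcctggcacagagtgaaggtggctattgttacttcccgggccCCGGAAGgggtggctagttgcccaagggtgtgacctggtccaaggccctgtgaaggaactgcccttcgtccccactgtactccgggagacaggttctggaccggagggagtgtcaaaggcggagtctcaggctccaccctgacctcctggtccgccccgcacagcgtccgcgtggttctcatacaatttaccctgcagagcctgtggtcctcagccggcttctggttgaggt
Pdss1: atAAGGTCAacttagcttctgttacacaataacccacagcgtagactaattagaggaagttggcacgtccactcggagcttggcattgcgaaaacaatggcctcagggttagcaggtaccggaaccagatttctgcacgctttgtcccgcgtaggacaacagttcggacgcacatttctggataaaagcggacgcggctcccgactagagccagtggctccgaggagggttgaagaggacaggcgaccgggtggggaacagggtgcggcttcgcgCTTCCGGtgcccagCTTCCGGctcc
Coq2: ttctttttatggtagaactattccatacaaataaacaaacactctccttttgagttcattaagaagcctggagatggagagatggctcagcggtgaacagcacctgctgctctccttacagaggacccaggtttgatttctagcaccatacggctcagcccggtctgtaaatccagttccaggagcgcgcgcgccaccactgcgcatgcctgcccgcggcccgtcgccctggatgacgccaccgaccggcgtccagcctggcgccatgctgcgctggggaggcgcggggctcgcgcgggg

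The capitals in the Hpdl promoter are the ETS factor motif CCGGAAG, at bases -182 to -176 (the start is base 1). In the Pdss1 promoter they are a nuclear receptor half-site, AAGGTCA, at bases -248 to -242, and CCGGAAG on the other strand at bases 26 to 32 and 40 to 46. The Coq2 promoter held no match to the motifs searched. RefSeq promoters were matched for 9 of the 10 genes, with no entry for Coq5. CCGGAAG was present on either strand in 4 of these 9 genes, Hpdl, Pdss1, Pdss2 and Coq6, and in 9.93% of all 27025 genes with a promoter. AAGGTCA was present in Pdss1 alone of the 9 and in 5.38% of all genes, and the YY1 core AAGATGGC in Coq9 alone and in 3.19%. The estrogen-related receptor site TCAAGGTCA, which contains AAGGTCA, the NRF1 motif GCGCATGCG and the cAMP response element TGACGTCA were present in 0 of the 9 genes and in 0.466%, 1.95% and 2.03% of all genes. A match of letters is not a measured binding site, and its absence from this window says nothing of the factor.

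Hpdl, on chromosome 4 at 116819904 to 116821707 of mm10 on the minus strand, is a gene of a single exon of 1804 bases with no annotated gene overlapping it. It had 9418, 8668 and 9850 normalized counts in FL libraries, 262, 271 and 268 in dCTD libraries and 68, 73 and 73 in LacZ libraries. Every FL library was above every dCTD library, and every dCTD library was above every LacZ library. These values rested on 8495, 9707 and 8849 whole reads with FL, 260, 223 and 277 with dCTD and 76, 76 and 83 with LacZ, so the LacZ level was low but counted in each library. The log2 fold change of Hpdl was 7.01 ± 0.064 for FL against LacZ (SE, n = 3 each), a ratio of means of 130.5, and 1.88 ± 0.114 for dCTD against LacZ, a ratio of 3.72. FL exceeded dCTD by 5.12 ± 0.051, a ratio of 34.89. The gene ranked 34 of 18227 tested genes from the highest fold change for FL over LacZ, 276 of 18066 for dCTD over LacZ and 12 of 18129 for FL over dCTD. A log2 fold change of at least 5 was found in 0.543%, 0.205% and 0.0717% of tested genes in the same order of comparisons, and Hpdl passed this size with FL against LacZ and against dCTD and not with dCTD against LacZ. In the authors' deposited table its log2 fold change was 6.95 for FL and 1.78 for dCTD against LacZ.

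**Figure D1:**
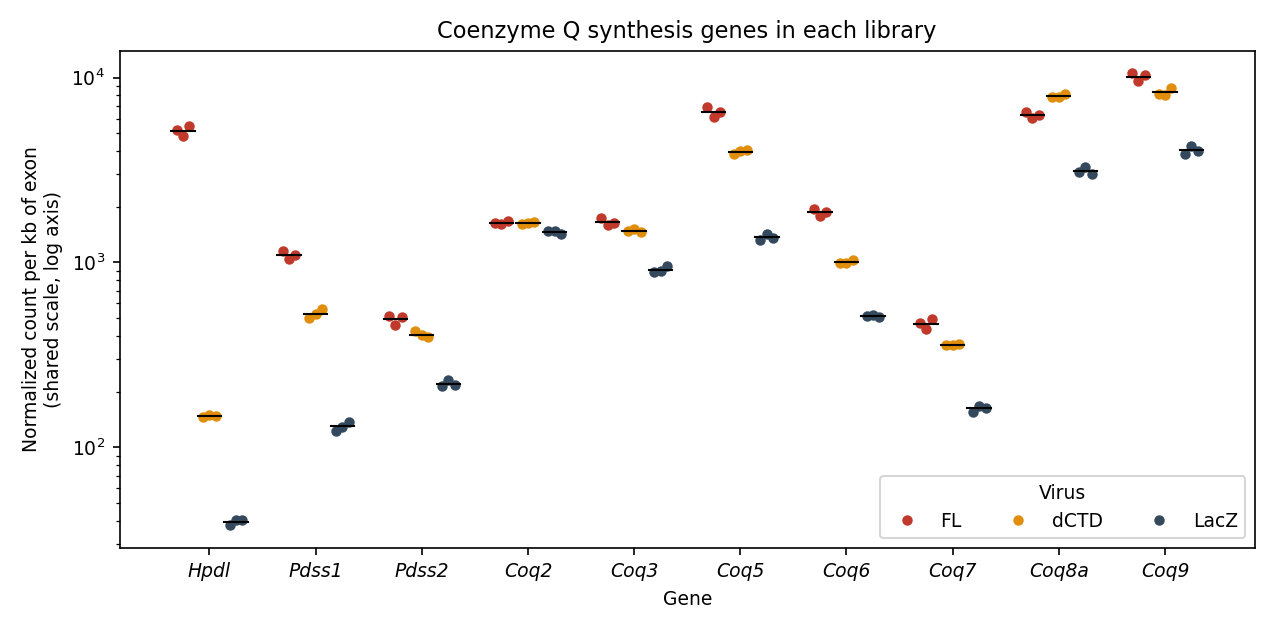
Normalized counts per kb of exon (log axis, scale shared by 9 libraries) for the 10 genes, with 1 point per library and a line at the mean, FL, dCTD and LacZ from left to right for each gene. Hpdl was the lowest of the 10 in every LacZ and dCTD library and the fourth highest with FL, while the 3 groups of Coq2 lay close together.

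The other 9 genes were all called higher with FL than with LacZ, and all 9 were called higher with dCTD than with LacZ (limma, adjusted p under 0.05). The exceptions to these calls under another scaling are Coq2 with FL and, for FL against dCTD, Coq3, given with each gene. Of all tested genes, 30.9% were called higher and 28.3% lower for FL against LacZ, and 23.1% higher and 21.7% lower for dCTD against LacZ. The median log2 fold change of these 9 genes was 1.32 for FL and 1.03 for dCTD, where the median of all tested genes was -0.007 for FL and -0.006 for dCTD. For FL against dCTD, 7 of the 9 were called higher, 1 lower and 1 did not pass, with a median of 0.28 and a median over all tested genes of -0.002. Of all tested genes 22.4% were called higher and 17.8% lower in that comparison. The genes were chosen by symbol with these contrasts known, so nothing is read from the counts. The FL and dCTD comparisons with LacZ also share the LacZ libraries.

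Of the pair that makes the tail, Pdss1 (chromosome 2, 22895522 to 22940266) had 4896, 4428 and 4658 normalized counts in FL libraries, 2135, 2243 and 2367 in dCTD libraries and 523, 549 and 581 in LacZ libraries. The 3 groups did not overlap, and the log2 fold change was 3.08 ± 0.053 for FL over LacZ, 2.02 ± 0.059 for dCTD over LacZ and 1.05 ± 0.044 for FL over dCTD. Its partner subunit Pdss2 (chromosome 10, 43221486 to 43464882) moved less, with 3064, 2745 and 3016 normalized counts in FL libraries, 2524, 2413 and 2343 in dCTD libraries and 1274, 1376 and 1303 in LacZ libraries. Its groups did not overlap either, at log2 fold changes of 1.16 ± 0.05 for FL over LacZ, 0.87 ± 0.05 for dCTD over LacZ and 0.28 ± 0.045 for FL over dCTD. Both subunits of the synthase were thus higher with each PGC-1α form, and the fold change of Pdss1 exceeded that of Pdss2 in each comparison. With dCTD the fold change of Pdss1 over LacZ, with a 95% interval of 1.9 to 2.14, lay beside that of Hpdl, 1.65 to 2.12, whereas with FL the intervals were 2.97 to 3.19 for Pdss1 and 6.88 to 7.14 for Hpdl.

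Coq2 (chromosome 5, 100654723 to 100675140), the prenyltransferase that joins tail and ring, was the least changed of the 10. It had 4271, 4210 and 4418 normalized counts in FL libraries, 4240, 4308 and 4339 in dCTD libraries and 3887, 3880 and 3757 in LacZ libraries. FL and dCTD libraries overlapped, and all 6 were above the 3 LacZ libraries. The log2 fold change was 0.16 ± 0.04 for FL against LacZ (limma, adjusted p = 7.84e-04) and 0.15 ± 0.04 for dCTD against LacZ (adjusted p = 0.002644). The FL call was lost when libraries were scaled by total count without Ppargc1a, at 0.08 (adjusted p = 0.0881). FL and dCTD differed by 0.00 with a 95% interval of -0.08 to 0.08 (limma, adjusted p = 0.987).

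The ring is modified by hydroxylases and methyltransferases. Coq6 (chromosome 12, 84361657 to 84373796), a flavin-dependent hydroxylase, had 6085, 5594 and 5893 normalized counts in FL libraries, 3120, 3135 and 3248 in dCTD libraries and 1609, 1630 and 1586 in LacZ libraries. Its 3 groups were well apart, and the log2 fold change was 1.86 ± 0.043 for FL over LacZ, 0.97 ± 0.044 for dCTD over LacZ and 0.89 ± 0.039 for FL over dCTD. Coq5 (chromosome 5, 115279666 to 115296972), the methyltransferase that adds a methyl group to a ring carbon, had 20967, 18518 and 19806 normalized counts in FL libraries, 11770, 12083 and 12313 in dCTD libraries and 4031, 4305 and 4095 in LacZ libraries. This was the third highest fold change with FL, 2.25 ± 0.042 against LacZ, with 1.53 ± 0.039 for dCTD over LacZ and 0.71 ± 0.04 for FL over dCTD.

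Coq3 (chromosome 4, 21879673 to 21912162), the methyltransferase that methylates ring oxygens, had 5186, 4787 and 4892 normalized counts in FL libraries, 4420, 4561 and 4393 in dCTD libraries and 2657, 2706 and 2867 in LacZ libraries. The FL and dCTD libraries did not overlap but lay close, at a difference of 0.15 ± 0.039 (limma, adjusted p = 0.00199), a call lost under total-count scaling without Ppargc1a (0.08, adjusted p = 0.0644). Against LacZ, Coq3 was higher by 0.85 ± 0.043 with FL and by 0.69 ± 0.043 with dCTD. Coq7 (chromosome 7, 118509659 to 118533356), the di-iron hydroxylase of the pathway, had 3031, 2810 and 3169 normalized counts in FL libraries, 2315, 2300 and 2325 in dCTD libraries and 1004, 1083 and 1054 in LacZ libraries. Its groups did not overlap, with log2 fold changes of 1.52 ± 0.052 for FL over LacZ, 1.14 ± 0.05 for dCTD over LacZ and 0.37 ± 0.044 for FL over dCTD.

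Coq9 and Coq8a act as partners of the enzymes. Coq9 (chromosome 8, 94838321 to 94854895), a lipid-binding protein that works with COQ7, had 32192, 29180 and 31463 normalized counts in FL libraries, 24936, 24451 and 26913 in dCTD libraries and 11827, 12968 and 12275 in LacZ libraries. FL libraries were above dCTD libraries, which were above LacZ libraries, at 1.32 ± 0.041 for FL over LacZ, 1.03 ± 0.043 for dCTD over LacZ and 0.28 ± 0.041 for FL over dCTD. Coq8a (chromosome 1, 180165238 to 180199602), an atypical kinase-like ATPase that supports the complex, had the opposite order of the PGC-1α forms. It had 34597, 31998 and 33392 normalized counts in FL libraries, 41315, 41708 and 43154 in dCTD libraries and 16292, 17298 and 15837 in LacZ libraries. Every FL library was below every dCTD library, at a log2 fold change of -0.34 ± 0.037 (limma, adjusted p = 9.74e-09), and both were above LacZ, by 1.02 ± 0.04 with FL and 1.35 ± 0.04 with dCTD. Coq8a shares 366 exon bases, 6.91% of its own, with Cdc42bpa on the opposite strand. Coq6, Pdss1 and Coq9 share 128, 207 and 38 exon bases with 1 gene each on the opposite strand, Pdss1 shares 194 with another, and how counting treated strand is not given in the sources used here. On the same strand Pdss2 shares 33 exon bases, 0.55% of its own, with the annotated gene Gm47856.

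**Figure D2:**
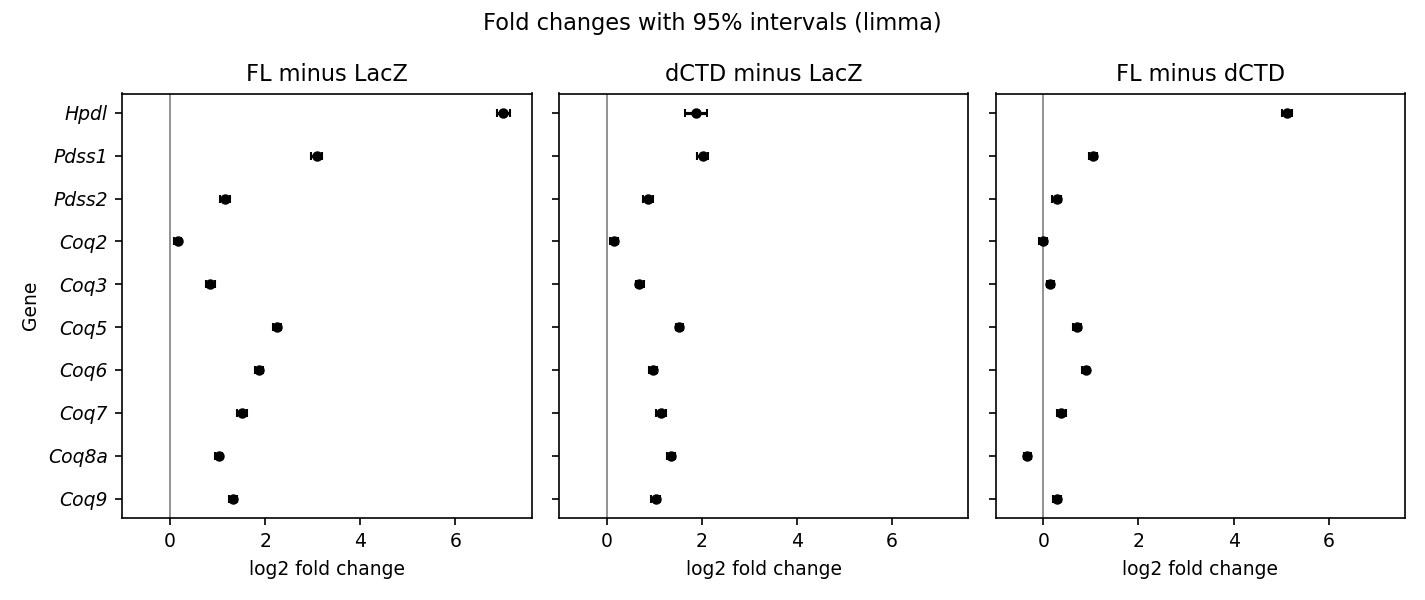
Log2 fold change of each of the 10 genes (point) with its 95% interval from limma (bar) for FL minus LacZ, dCTD minus LacZ and FL minus dCTD, 3 libraries per group. Hpdl stood at 7.01, 1.88 and 5.12 in these comparisons, and Coq8a was the gene below 0 for FL minus dCTD, at -0.34.

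The order of the genes by level was set per length, as normalized counts per kb of exon. Exon bases were taken over all annotated transcripts of a gene, 1804 for Hpdl, 5963 for Pdss2 and 6434 for Coq7. Orders and shares per kb may thus differ from those of the transcripts present. By normalized count with FL, Pdss2 (mean 2942) was below Coq7 (3003). With LacZ the order was Coq9, Coq8a, Coq2, Coq5, Coq3, Coq6, Pdss2, Coq7, Pdss1 and Hpdl, and no neighbours overlapped between libraries. Levels ran from 4045 ± 188.2 per kb for Coq9 to 39.56 ± 1.464 per kb for Hpdl (SD, n = 3). With dCTD Hpdl was still last, at 147.9 ± 2.27 per kb, and Coq9 and Coq8a overlapped at the top. With FL the order was Coq9, Coq5, Coq8a, Hpdl, Coq6, Coq3, Coq2, Pdss1, Pdss2 and Coq7, and Hpdl was at 5162 ± 331.4 per kb. Coq5 and Coq8a, Coq3 and Coq2, and Pdss2 and Coq7 overlapped between FL libraries. Hpdl thus made up 14.25%, 14.37% and 15.22% of the summed per-kb level of the 10 genes in FL libraries, 0.574%, 0.589% and 0.557% in dCTD libraries and 0.324%, 0.324% and 0.344% in LacZ libraries. Replicates of a group stayed close for all 10 genes, with coefficients of variation of the normalized count of 2.48% to 6.42% with FL, 0.544% to 5.16% with dCTD and 1.35% to 5.28% with LacZ.

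**Figure D3:**
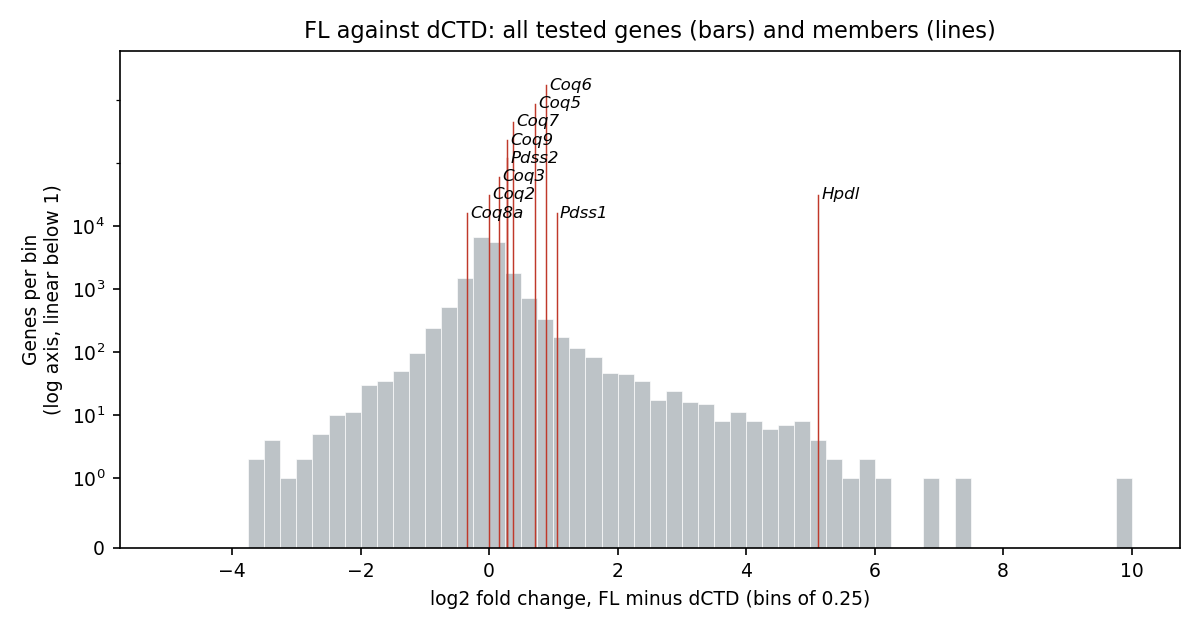
Number of genes in each 0.25-wide bin of the log2 fold change, FL minus dCTD, over 18129 tested genes (bars, log axis), with a line at the value of each of the 10 genes (line heights carry no value). All lines but that of Hpdl lie between -0.34 for Coq8a and 1.05 for Pdss1, and Hpdl lies at 5.12.

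Other genes linked to coenzyme Q were taken from lists written with earlier results of these data known. Against LacZ, 30.9% of all tested genes were called higher and 28.3% lower with FL, and 23.1% and 21.7% with dCTD. Nothing is read from list counts near these shares. Of 11 further genes that act in coenzyme Q synthesis, its regulation or its transport, 8 were higher with FL than with LacZ, 0 were lower and 3 did not pass (median log2 fold change 0.41), and 7 were higher with dCTD and 4 did not pass (median 0.32). Of the 8, Adck2, named after its values were seen, did not pass under total-count scaling without Ppargc1a (0.13, adjusted p = 0.0701). Fdx1, a ferredoxin that carries electrons to mitochondrial enzymes, had the highest fold change of these with FL, at 6100 ± 531.5 normalized counts with FL, 2040 ± 36.29 with dCTD and 747 ± 38.24 with LacZ. Its log2 fold change was 3.03 ± 0.056 for FL over LacZ, 1.44 ± 0.055 for dCTD over LacZ and 1.58 ± 0.048 for FL over dCTD. Pptc7, a mitochondrial phosphatase, was higher by 2.05 ± 0.04 with FL and 1.25 ± 0.042 with dCTD than with LacZ, and Stard7, a lipid transfer protein that carries coenzyme Q, by 1.25 ± 0.039 with FL and 0.6 ± 0.038 with dCTD. The genes that did not pass for FL against LacZ, named after their values were seen, were Coq4, a scaffold of the complex (0.07, 95% interval -0.04 to 0.18), Coq8b, the paralog of Coq8a (0.06, -0.06 to 0.17), and the ferredoxin gene Fdx2 (0.25, -0.23 to 0.74). Coq8b had 1726 ± 107.9 normalized counts with FL, 1691 ± 78.81 with dCTD and 1661 ± 123.8 with LacZ.

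Genes of the mevalonate pathway, which makes the isoprene units of the tail, and of its branches stayed within small fold changes. The 10 genes listed had log2 fold changes of -0.22 to 0.17 for FL against LacZ (median 0.07). Of these 2 were higher, 2 lower and 6 not past the threshold. For dCTD against LacZ they ran from -0.1 to 0.23 (median 0.04), with 2 higher and 8 not past. Nothing is read from these counts beside the shares called over all tested genes. Fdps, which makes farnesyl diphosphate, was higher with FL by 0.17 ± 0.047 (limma, adjusted p = 0.003061) and Hmgcs1, which makes HMG-CoA and was named after its values were seen, by 0.09 (adjusted p = 0.04). Ggps1, which makes geranylgeranyl diphosphate, was lower, at -0.22 ± 0.038 (adjusted p = 1.54e-05), as was Mvd, a decarboxylase of the pathway, at -0.15 ± 0.047 (adjusted p = 0.006096). Under total-count scaling without Ppargc1a the counts for FL against LacZ were 0 higher and 4 lower, so neither higher call held. Without LacZ replicate 2 the Mvd call was lost (limma, adjusted p = 0.0746), and the Hmgcs1 call was lost without any 1 of 4 libraries, LacZ replicates 1 and 2 and FL replicates 1 and 3 (adjusted p = 0.0652 to 0.145), with edgeR (0.0683) and under the replicate block (0.0699). The 2 genes higher with dCTD, named after their values were seen, were Hmgcs1 (0.23 ± 0.039) and Idi1, an isomerase of the pathway (0.16 ± 0.049), and the Idi1 call was lost without LacZ replicate 1 or dCTD replicate 1 (adjusted p = 0.0801 and 0.0571).

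Of 11 genes whose enzymes pass electrons to coenzyme Q outside complex I, 9 were higher with FL than with LacZ, 1 was lower and 1 did not pass (median 1.0), and 7 were higher with dCTD and 4 did not pass (median 0.53). Of the 9, Dhodh, named after its values were seen, did not pass under that scaling (0.06, adjusted p = 0.415), with edgeR (0.0504), with DESeq2 (0.06) or with no filter on low values (0.0835), nor without LacZ replicate 1, LacZ replicate 2 or FL replicate 3 (0.0557 to 0.21). Etfdh, which hands over electrons from fatty acid oxidation, had 41336 ± 2267 normalized counts with FL, 22166 ± 689.5 with dCTD and 8841 ± 70.35 with LacZ. It was higher by 2.22 ± 0.04 with FL and by 1.32 ± 0.037 with dCTD than with LacZ. Sdhb and Sdhd, subunits of succinate dehydrogenase, were higher with FL by 2.12 ± 0.042 and 1.77 ± 0.042, and with dCTD by 1.26 ± 0.042 and 1.36 ± 0.04. Chdh, choline dehydrogenase, was lower with FL, at -0.37 ± 0.152 (limma, adjusted p = 0.03546), with 71.05 ± 11.27 normalized counts with FL, 87.28 ± 12.54 with dCTD and 91.67 ± 5.51 with LacZ. That call was lost without any 1 of 5 libraries, all but FL replicate 3 (adjusted p = 0.054 to 0.191), with DESeq2 (0.103) and with no filter on low values (0.0589).

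Tyrosine breakdown shares 4-hydroxyphenylpyruvate with HPDL. Of its 8 genes 4 passed the filter on low values, and those named here other than Got1, Got2 and Gstz1 were named after their values were seen. Got1 and Got2, aminotransferases that act mainly on aspartate and also on tyrosine, were higher with FL than with LacZ by 3.65 ± 0.044 and 2.23 ± 0.041, and with dCTD by 2.37 ± 0.04 and 1.36 ± 0.038. Fah and Gstz1, which act late in the pathway, did not pass for FL against LacZ (0.04, 95% interval -0.04 to 0.13, and 0.05, -0.03 to 0.12), and Gstz1 was higher with dCTD by 0.11 ± 0.038 (limma, adjusted p = 0.02382). The Gstz1 call with dCTD was lost without any 1 of 4 libraries, LacZ replicates 2 and 3 and dCTD replicates 2 and 3 (adjusted p = 0.0506 to 0.0817), under the replicate block (0.0734) and with no filter on low values (0.0577). Hpd, the paralog of Hpdl that sends 4-hydroxyphenylpyruvate into breakdown, had 1 read over the 3 FL libraries, 1 over the 3 dCTD libraries and 1 over the 3 LacZ libraries, too few for any fold. Tat and Hgd had 2 and 11 reads over the FL libraries, 2 and 14 over the dCTD libraries and 5 and 19 over the LacZ libraries.

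**Figure D4:**
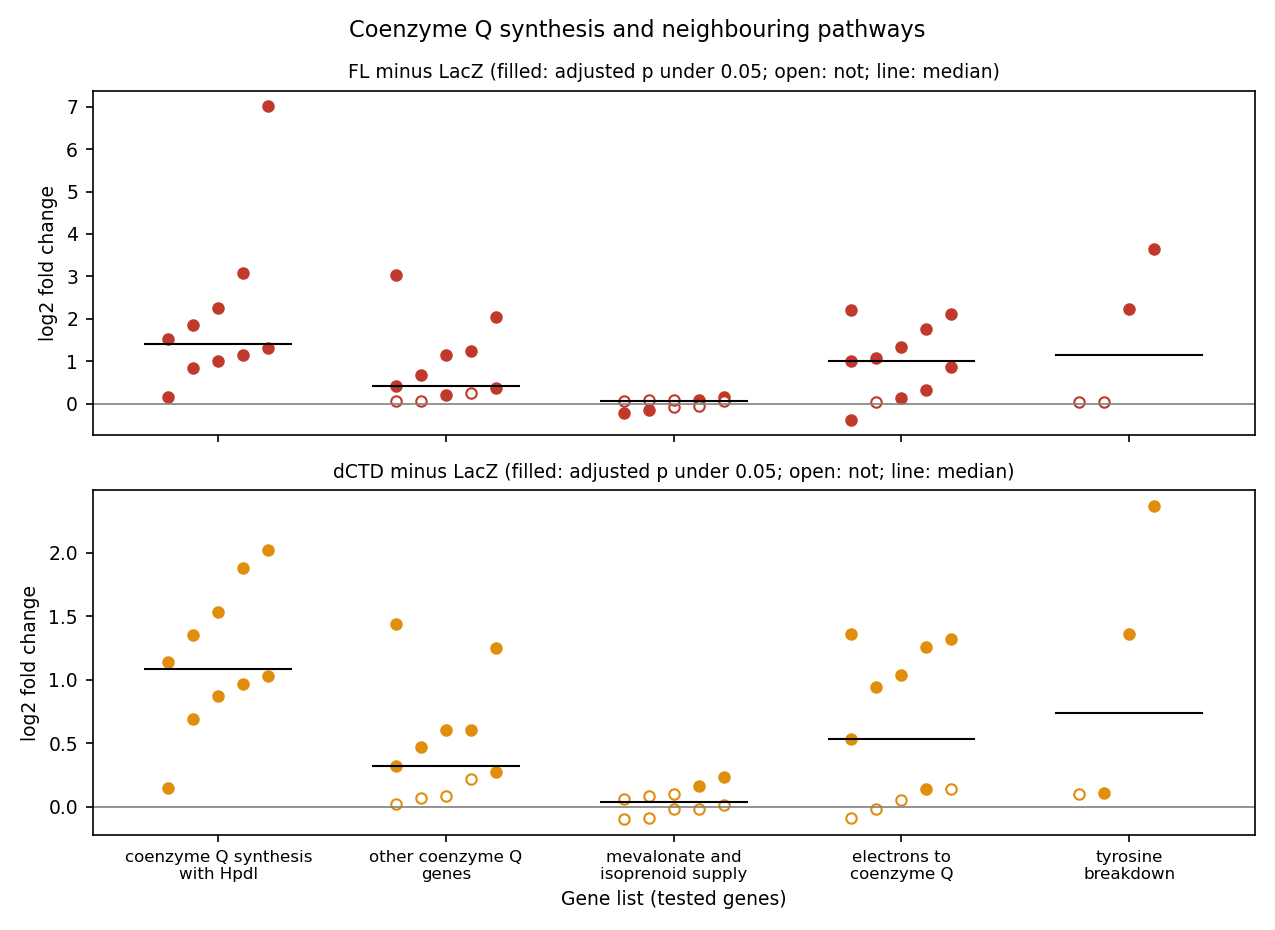
Log2 fold change of each tested gene against LacZ, FL above and dCTD below, for the 10 genes and the lists of linked genes (filled points passed an adjusted p of 0.05, open points did not, lines are medians, and the vertical scales of the panels differ). The mevalonate genes lay between -0.22 and 0.17 with FL, and Hpdl is the point at 7.01 in the FL panel.

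The genes whose profiles over the 9 libraries were most like that of Hpdl were sought among 14374 genes with a mean of at least 50, by the mean absolute difference of log2(normalized count + 1) taken relative to their LacZ mean. They were Elfn2 (0.335), Platr26 (0.374), Aqp3 (0.375), Tcam1 (0.448) and Fam131c (0.459). Elfn2, Platr26 and Aqp3 reached that mean through FL alone, at 245.8, 144.8 and 359.2 normalized counts with FL and 0.888, 0.0 and 1.23 with LacZ. Their profiles relative to LacZ therefore depend on the added 1, and nothing is read from their likeness. Fam131c had a mean of 3275 with FL, 220.7 with dCTD and 38.38 with LacZ, and Tcam1 of 1261 with FL, 80.21 with dCTD and 20.68 with LacZ. The genes closest to the mean profile of the other 9 were Idh3b (0.023), Pdhb (0.026), Slc25a3 (0.029), Mavs (0.03) and Fh1 (0.035). Idh3b, a subunit of a TCA cycle dehydrogenase, averaged 33617 with FL, 25396 with dCTD and 12145 with LacZ. These likenesses are descriptions over libraries of 3 conditions and carry no test.

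The protein-coding genes nearest to Hpdl on each side, chosen after their values were seen, had smaller fold changes where they were tested. Mutyh, a DNA repair glycosylase that lies 464 bases from Hpdl, was higher with FL than with LacZ by 1.15 ± 0.108 and with dCTD by 0.53 ± 0.114, and with FL than with dCTD by 0.61 ± 0.093 (limma, adjusted p = 1.78e-10, 4.74e-04 and 3.09e-06). Toe1 and Tesk2, farther on the same side, had log2 fold changes of -0.13 ± 0.047 and -0.24 ± 0.052 for FL against LacZ. On the other side Urod, a heme synthesis enzyme, was higher with FL by 0.63 ± 0.041, Hectd3 was at -0.02 ± 0.037, and Zswim5 was too low to be tested. For dCTD against LacZ, Urod was higher by 0.23 ± 0.048, and Toe1, Tesk2 and Hectd3 did not pass.

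Markers of the cell types a C2C12 culture can hold were read beside these genes. Over all tested genes 30.9% were called higher and 28.3% lower with FL than with LacZ, and 23.1% and 21.7% with dCTD. Nothing is read from marker counts near these shares. The summed level of 9 myotube markers was 827129 to 874857 normalized counts with FL, 720123 to 762966 with dCTD and 954930 to 1009756 with LacZ. Des was a large part of these sums, at means of 411019 with FL, 257748 with dCTD and 226484 with LacZ. Without Des the mean sum with FL lies below that with dCTD. For FL against LacZ 1 of the 9, Des, was higher and 7 were lower, and for dCTD against LacZ 3 were higher and 5 lower. With FL the log2 fold change was 0.86 for Des and -0.09 for Actn2. The others called lower with FL ran from -1.68 for Myh3 to -0.56 for Ckm. Of the 7, Actn2, named after its values were seen, did not pass under the replicate block (adjusted p = 0.072), with no filter on low values (0.107) or without any 1 of 5 libraries, all but LacZ replicate 1 (0.0773 to 0.163). Tnnt3, likewise named, was also lower with edgeR (0.0463), with DESeq2 (0.0393), with no filter, under total-count scaling and without FL replicate 1 (0.0131). Of the 5 lower with dCTD, the Tnnt3 call was lost without dCTD replicate 1 (0.0568), and Ckm, likewise named, was also higher without LacZ replicate 2 (0.0332) or dCTD replicate 2 (0.00674). The sum of 4 myoblast and reserve cell markers was 7826 to 8250 with FL, 7477 to 7792 with dCTD and 6271 to 6516 with LacZ, and that of 3 proliferation markers 12163 to 13208, 8766 to 8942 and 7423 to 8858 with FL, dCTD and LacZ. For FL against LacZ 3 of the 4 and all 3 of these markers were higher, and for dCTD against LacZ 2 of the 4 and 0 of the 3 (1 of the 3 without LacZ replicate 1, Mki67, adjusted p = 0.0455). Of 4 fibroblast markers 0 were higher and 1 lower with FL, and 1 was higher and 0 lower with dCTD. That dCTD call, of Dpt, was lost without LacZ replicate 2 (adjusted p = 0.174) or dCTD replicate 3 (0.127), and Dpt was lower with FL without LacZ replicate 2 (0.0104). With dCTD, Dcn was lower without LacZ replicate 1 (0.0348). These genes too were named after their values were seen. The sum of the fibroblast markers was 20956 to 22616 with FL, 22346 to 23865 with dCTD and 23598 to 25337 with LacZ, and 4 adipocyte markers, all too low to be tested, summed to at most 10 in any library, with 1 of them at 0 in the FL libraries and none at 0 in all libraries. Fewer cells of a type and less RNA per cell cannot be told apart in these libraries. The part of these shifts in the levels of the coenzyme Q genes was not tested.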

How the data were processed

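Per the labels' protocols, polyadenylated RNA went into a kit for stranded mRNA libraries. Named in the submitters' processing notes, with no settings, are the aligner STAR 2.7.2b, the counter featureCounts 1.6.4, DESeq2 2.11.40.6, the trimmer Trim Galore 0.4.3.1, FastQC 0.72 and the build mm10. The authors deposited 2 tables of 55421 genes, FL with LacZ and dCTD with LacZ, whose values are a signal, normalized counts per the file headers. Per the file headers, those tables also hold the authors' log2 fold changes, printed only where the authors' deposited table is named, and the authors' p-values and Wald score, which were not used. Dividing by the step between values gave back whole reads for 100% of 317312 values, to within 0.001 reads, and LacZ reads differed at 0 genes between tables. Start positions were shifted by 1 to count from 1. In 14 cases a gene name turned into a date was restored from its identifier.

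Comparisons used limma 3.58.1 in R 4.3.3 (trend, robust) on log2(value + 1), keeping every gene whose mean reached 10, with two-sided p-values adjusted by the Benjamini-Hochberg method over all tested genes and a threshold of 0.05. FL and dCTD stand in tables normalized separately, so their comparison used recovered reads scaled together by median of ratios. Adding 1 makes the fold changes of low genes too small. edgeR 4.0.16 and DESeq2 1.42.0 on the reads were alternatives, beside other pseudocounts, filters, scalings, a replicate block and leaving out each library. The steps were run on simulated data with the same spread for every gene and planted folds larger than the small fold changes given here. That run therefore says nothing of the small calls. Exon lengths come from GENCODE M21. The series' design text calls the libraries of a group biological replicates without saying what was separate, so p-values measure the spread between these libraries, which may be technical.

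The members and lists were chosen with earlier results of these data known. Genes named are the members and Ppargc1a, the 3 of each list that rank first by p in the comparison of FL with LacZ, any list member past the threshold in the direction opposite to most, and the 5 most like Hpdl or the mean of the other members; others are said to be named after their values were seen.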

Additional observations from a re-analysis of the deposited data

How the results depend on the processing

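The counts of members called stayed at 10, 10 and 8 higher (FL against LacZ, dCTD against LacZ, FL against dCTD) under other pseudocounts, filters, tests and fits, except when libraries were scaled by total count without Ppargc1a, where they were 9, 10 and 7. That scaling also gave a median of the members of 1.335 for FL against LacZ and 0.262 for FL against dCTD (main values 1.422 and 0.329) and a log2 fold change of Hpdl of 6.92 for FL against LacZ. It called 5411 genes lower for FL against dCTD, in place of 3228. Among called genes the share called higher was then 39.1% in place of 52.2% for FL against LacZ, 48.4% in place of 51.5% for dCTD against LacZ and 36.7% in place of 55.7% for FL against dCTD. The cause was not tested. With a pseudocount of 10 the log2 fold change of Hpdl was 6.84 for FL and 1.76 for dCTD against LacZ, as a larger pseudocount shrinks the fold of a gene that is low with LacZ. Leaving out any 1 library changed no call of a member, and Hpdl ranged from 6.97 to 7.06 for FL against LacZ, 1.85 to 1.9 for dCTD against LacZ and 5.08 to 5.17 for FL against dCTD.

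Deviations of same-numbered libraries from their group means correlated at -0.18 to 0.09 over 9 pairs, and 0 were over 0.1. With 3 libraries per group these correlations cannot show whether replicate numbers pair the libraries. With the replicate number as a block, 5624 genes were called higher and 5096 lower for FL against LacZ, 3894 and 3502 for dCTD against LacZ, and 4129 and 3302 for FL against dCTD, and no call of a member changed. Among the other lists' calls against LacZ, the block ended those of Hmgcs1 and Actn2 with FL and of Gstz1 with dCTD.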
